A study of Homo sapiens with 6 samples.

Results

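Expression of 9 transcription factors that set gastric and intestinal identity was examined in NCI-N87, an established human gastric cancer cell line. The genes GATA4, GATA6, SOX2, CDX1, CDX2, HNF4A, FOXA2, FOXL1 and KLF5 were taken by symbol, and all 9 of them are among the 58735 genes of the deposited tables. Cells carried the lentiviral plasmid PLVX-IRES-Puro with EGLN3 in 3 libraries and the same plasmid without an insert in 3 control libraries. EGLN3 is a prolyl hydroxylase known for acting on hypoxia-inducible factors. Exposure to plasmid lasted 1 day (5 days by the label of EGLN3 replicate 3), and 7 days of puromycin selection followed in every library. The labels name neither the promoter that drives the insert nor separate cultures for the replicates, so p-values reflect how far these libraries scatter, and that scatter may be technical. In bulk RNA, fewer cells expressing a gene and less RNA per cell cannot be told apart.

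In the gut, regional identity rests on a small set of such factors. SOX2 marks foregut and stomach epithelium, CDX1 and CDX2 are homeobox factors of the intestine, and GATA4, GATA6, HNF4A and FOXA2 act across endoderm. KLF5 is a zinc finger factor of proliferating gut epithelium, and FOXL1 is a fork head factor best known from the mesenchyme beneath it. Ectopic CDX2 in the stomach accompanies intestinal metaplasia.

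Library totals ran from 15157265 to 16767383 counts, and 15726 genes had enough counts to be tested. EGLN3 itself was at 0.0761 to 0.0946 FPKM (deposited values, scaled for gene length and library size) in controls. With its plasmid it was at 65.2, 221 and 229.5 FPKM in replicates 1 to 3, so replicate 1 carried the least. The first principal component of all tested genes held 70% of the variance and did not follow the plasmid. Control replicates 1 to 3 scored -36.2, 11.5 and 34.4 on it, and EGLN3 replicates 1 to 3 scored 59.4, -23.3 and -45.9. Results below were therefore also computed with 1 surrogate variable, an estimated covariate that takes such an axis out of the comparison.

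The lineage factors formed a wide range of levels. KLF5 was the most abundant, CDX2 came next, the pair GATA4 and GATA6 and then HNF4A and FOXL1 followed, SOX2 and FOXA2 were near the limit of detection, and CDX1 had no read. In control means per length, KLF5 stood at 62.9 ± 8.73 FPKM (SD, n = 3), above 97.1% of 19951 protein-coding genes, and 6.65 times CDX2. CDX2 was at 9.46 ± 1.26 FPKM, GATA4 at 5.34 ± 0.471 and GATA6 at 4.01 ± 0.157. HNF4A was at 3.40 ± 0.297 FPKM and FOXL1 at 2.78 ± 0.0599. In all, 6 of the 9 reached 1 FPKM in controls. Over the 3 control libraries, each gene from KLF5 down to FOXL1 lay wholly above the next in this order. SOX2, at 0.416 ± 0.148 FPKM, and FOXA2, at 0.329 ± 0.111, overlapped and have no order. The same order held in CPM (counts scaled to library size) per kilobase.

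**Figure D1:**
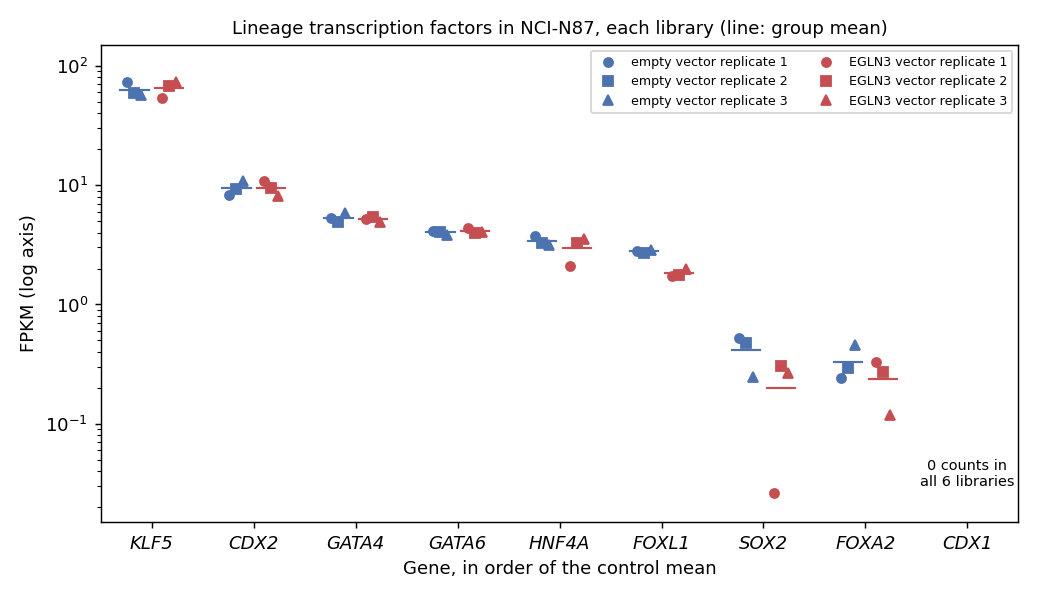
Deposited FPKM of the 9 factors (log axis) in each of the 6 libraries, in order of the control mean, with blue for the empty vector, red for the EGLN3 vector, marker shapes for replicates and a line for each group mean. FOXL1 is the 1 gene whose 3 EGLN3 libraries all lie below its 3 controls, and CDX1 has 0 counts throughout.

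Of the caudal homeobox pair, CDX2 was detected and CDX1 was not. CDX2 (ENSG00000165556) maps to chromosome 13 (27962137 to 27971139 in GRCh38, minus strand). Controls 1 to 3 held 8.31, 9.26 and 10.8 FPKM of it, and EGLN3 libraries 1 to 3 held 10.7, 9.44 and 8.09. The groups overlapped almost entirely, and the highest libraries, control replicate 3 and EGLN3 replicate 1, are those with the highest scores on the first component. The log2 fold change of CDX2 with EGLN3 was -0.00925 (SE 0.163; edgeR quasi-likelihood test, unadjusted p = 0.956). CDX1 (ENSG00000113722), on the plus strand of chromosome 5 from 150166795 to 150184558, had 0 of 96980179 counts over the 6 libraries. At 95% confidence, for counting error only, a count of 0 over the 6 libraries allows up to 3 counts, or 0.0176 CPM per kilobase. By that bound CDX2 was at least 540 times higher per length. CDX4, the remaining family member, also had 0 counts in every library.

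The CDX2 window is shown because it holds both a fork head and a GATA motif, the motifs of other factors described here, and the HNF4A windows because they lie at separate starts of that gene, which the counts do not separate. Windows run from 250 bases before to 50 bases after a RefSeq start (GRCh38.p14), 5' to 3' on the gene's strand. Such windows were found for 5 of the 9 genes, 7 windows in all. Capitals mark matches on either strand to the fork head motif TGTTTAC, the GATA motif AGATAA, or the hypoxia response cores ACGTG and GCGTG.
CDX2, chr13:27969266-27969565, minus strand: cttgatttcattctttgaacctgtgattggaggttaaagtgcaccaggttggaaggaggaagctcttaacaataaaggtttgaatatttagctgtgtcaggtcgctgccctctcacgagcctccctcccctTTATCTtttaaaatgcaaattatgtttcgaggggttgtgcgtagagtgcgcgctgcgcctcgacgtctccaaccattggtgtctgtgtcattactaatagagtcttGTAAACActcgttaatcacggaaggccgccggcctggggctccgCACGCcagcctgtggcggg
HNF4A, upstream start, chr20:44355449-44355748, plus strand: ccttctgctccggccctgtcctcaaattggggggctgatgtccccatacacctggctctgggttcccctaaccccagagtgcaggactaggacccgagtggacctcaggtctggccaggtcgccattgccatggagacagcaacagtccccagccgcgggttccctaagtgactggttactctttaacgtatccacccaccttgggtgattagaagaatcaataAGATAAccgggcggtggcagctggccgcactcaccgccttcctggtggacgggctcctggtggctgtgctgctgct
HNF4A, downstream start, chr20:44400989-44401288, plus strand: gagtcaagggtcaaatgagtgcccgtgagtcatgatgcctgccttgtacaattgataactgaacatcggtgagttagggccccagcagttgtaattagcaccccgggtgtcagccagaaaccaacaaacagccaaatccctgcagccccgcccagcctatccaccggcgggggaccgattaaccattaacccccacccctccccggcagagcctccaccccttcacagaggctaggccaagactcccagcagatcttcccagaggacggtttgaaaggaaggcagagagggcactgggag

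Read from the 5' end, the CDX2 window holds an AGATAA match at base 132, a TGTTTAC match at base 238 and a GCGTG match at base 282, each on the opposite strand. Among all 35116 windows of this length, 3.42% hold the fork head motif, 10.3% the GATA motif and 48.4% a hypoxia response core. The upstream HNF4A window holds AGATAA at base 225, and the downstream one holds none of these letters. Of the 7 windows, 1 holds the fork head motif, that of CDX2. CDX2's window had 0.844 of the CpG pairs that its base composition would give, above 73.4% of all windows, while the HNF4A windows were at 0.409 and 0.364. These are matches of letters, and no binding was measured.

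HNF4A, a nuclear receptor that controls epithelial differentiation in gut and liver, was lower in 1 EGLN3 library. The gene (ENSG00000101076) spans 44355700 to 44434596 on the plus strand of chromosome 20, with 9 transcripts and 6 start sites in GENCODE release 29. Controls 1 to 3 measured 3.74, 3.30 and 3.17 FPKM, and EGLN3 libraries 1 to 3 measured 2.09, 3.27 and 3.52. EGLN3 replicate 1 stood below every other library, and replicates 2 and 3 lay within the control range. HNF4A had a log2 fold change of -0.20 with SE 0.22 (unadjusted p = 0.389 by edgeR, 1 after adjustment). Without EGLN3 replicate 1 it was 0.0106. With the surrogate variable it was -0.26 (SE 0.0865; edgeR, adjusted p = 0.0875), which did not pass. EGLN3 replicate 1 is also the library with the highest score on the first component and the lowest EGLN3 level, and the part of either in the value was not tested. The related receptor HNF4G was at 1.17 FPKM in controls, so HNF4A was 2.92 times as high per length.

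The zinc finger factors GATA4 and GATA6 were the steadiest of the set. GATA6 (ENSG00000141448; chromosome 18, 22169443 to 22202528, plus strand) ran at 4.13, 4.06 and 3.83 FPKM in control replicates 1 to 3 and at 4.33, 3.99 and 4.08 with EGLN3. Its coefficient of variation over the 6 libraries was 4.03%, below the 6.18% that counting alone gives at this depth. GATA4 (ENSG00000136574; chromosome 8, 11676959 to 11760002, plus strand) ran at 5.29, 4.90 and 5.84 FPKM in controls and 5.22, 5.43 and 4.94 with EGLN3, a coefficient of 6.57% against 5.12% from counting. Their groups overlapped, with log2 fold changes of -0.0441 (SE 0.129) for GATA4 and 0.0414 (SE 0.123) for GATA6. In controls GATA4 was 1.33 times GATA6 per length. Exons of GATA6 share 240 bases with GATA6-AS1 and 321 with AC091588.3 on the opposite strand. No source used here states whether counting used strand. The antisense genes had 2 to 13 and 0 to 6 counts per library, against 243 to 285 for GATA6. These counts do not show how reads in the shared bases were assigned. Of the other GATA genes, GATA2 was at 4.64 ± 0.410 FPKM in controls and 4.03 with EGLN3, and GATA5, another endoderm member, had 1 count in 1 library.

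KLF5 varied along the first component. The gene (ENSG00000102554) lies on the plus strand of chromosome 13, from 73054976 to 73077542. Controls 1 to 3 had 72.9, 59.0 and 56.9 FPKM, and EGLN3 libraries 1 to 3 had 53.8, 67.0 and 73.1, so the groups overlapped. Ordered by their score on the component, the 6 libraries are also ordered by KLF5, with the highest level at the lowest score. KLF5 had a coefficient of variation of 13.1% where counting gives 1.57%. The log2 fold change with EGLN3 was 0.0355 (SE 0.176; edgeR, unadjusted p = 0.846) and 0.00537 (SE 0.0481) with the surrogate variable. KLF4, which is found in differentiated gut epithelium, was at 19.0 FPKM in controls with a coefficient of variation of 4.85%.

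**Figure D2:**
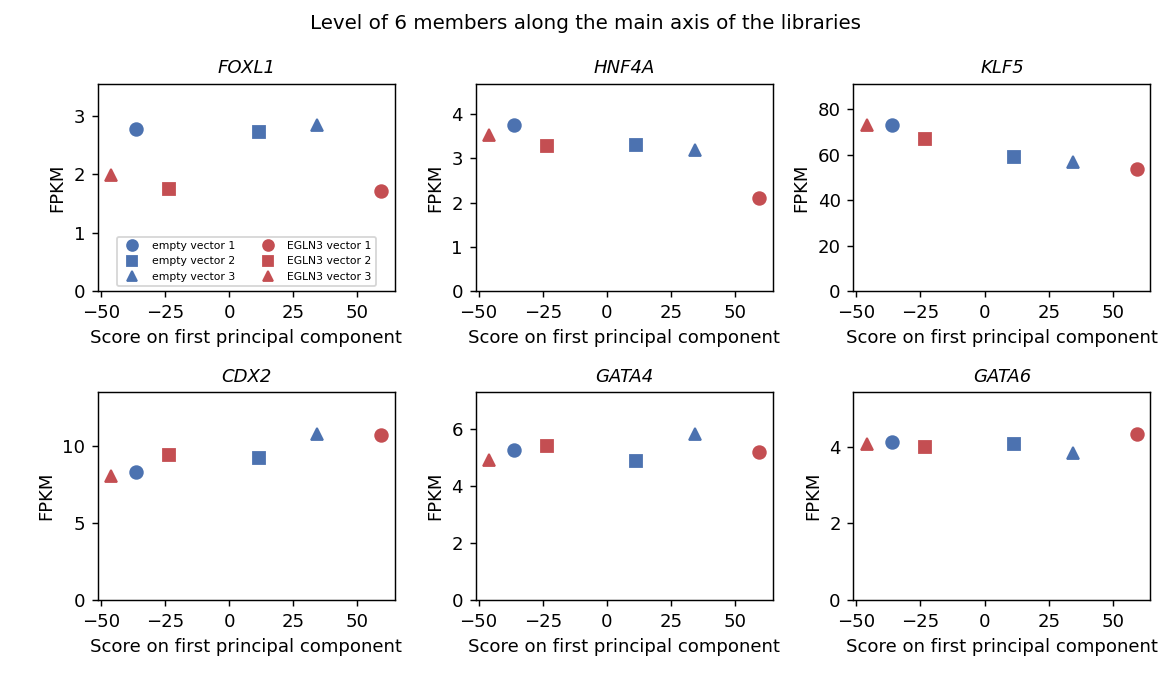
Deposited FPKM of 6 factors (vertical axes from 0) against each library's score on the first principal component, blue for the empty vector and red for the EGLN3 vector. KLF5 runs downward along the component in both groups, while every red library lies below every blue one for FOXL1.

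FOXL1 was the factor whose level differed most clearly between the groups. The gene (ENSG00000176678) lies on the plus strand of chromosome 16, from 86576368 to 86582160, with 2 exons, and no other annotated gene overlaps it. Controls 1 to 3 gave 182, 161 and 171 counts, and EGLN3 libraries 1 to 3 gave 98, 112 and 121. In FPKM these were 2.78, 2.72 and 2.84 against 1.72, 1.76 and 1.99. Controls lay close together, at 2.78 ± 0.0599 FPKM, which is less scatter than counting alone gives at these counts. Their closeness is therefore no measure of precision. Over the 6 libraries the coefficient of variation was 23.2%, where counting gives 8.43%. All 3 EGLN3 libraries were below the controls, and the lowest control was 1.37 times the highest EGLN3 library. The mean with EGLN3, 1.82 ± 0.143 FPKM, was 65.5% of the control mean. Within the EGLN3 group, replicate 1 had the least EGLN3 (65.2 FPKM) and the lowest FOXL1. Replicate 3, labelled with 5 days of plasmid, had the most EGLN3 (229.5 FPKM) and the highest FOXL1. The part of the EGLN3 level or of those days was not tested.

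The log2 fold change of FOXL1 was -0.61 (SE 0.14; edgeR, unadjusted p = 0.00383). This was the fifth smallest p of 15726 genes (rank 5), but it did not pass adjustment over all of them (edgeR, adjusted p = 1). In the fit with 1 surrogate variable FOXL1 fell by 34.9%, a log2 fold change of -0.62 with SE 0.13 (adjusted p = 0.00594, edgeR). There it ranked 137 by p. When each library's trends on GC content and gene length were removed as well, the log2 fold change was -0.55 (SE 0.13; edgeR, adjusted p = 0.0244). The covariate comes from the same libraries and is then treated as known, so these p-values may be too small. Without EGLN3 replicate 1 the surrogate variable fit gave -0.57 (edgeR, adjusted p = 0.118) and no longer passed, while it passed without each of the other 5 libraries. By score on the first component, control against EGLN3 was 2.78 against 1.76 and 1.99 FPKM in libraries with negative scores. With positive scores it was 2.72 and 2.84 against 1.72. As the groups do not overlap, any such split would show the same direction, so the part of the component was not tested by it.

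Set against all genes, groups that do not overlap were uncommon but not rare. FOXL1 was the 1 of 8 tested factors with no overlap in CPM, where 6.26% of tested genes had none and 3.62% were lower with EGLN3. At an adjusted p under 0.05, edgeR called 0 of the 8 factors, against 0.00636% of all tested genes, which is EGLN3 alone. At an unadjusted p under 0.05 it had 1 of 8, where 1.11% of tested genes did. DESeq2 and limma-voom also called 0 with 1 at the unadjusted mark. With the surrogate variable 3 of 8 (FOXL1, SOX2 and HNF4A) were at an unadjusted p under 0.05, where 19.5% of tested genes were. With the surrogate variable 1 of 8 was called, against 4.76% of tested genes in either direction and 3.66% lower. With the GC and length trends removed too, the same gene was called, against 0.992% in either direction and 0.655% lower. The median log2 fold change of the 8 was -0.123, with 6 negative, and that of all tested genes was 0.0104.

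**Figure D3:**
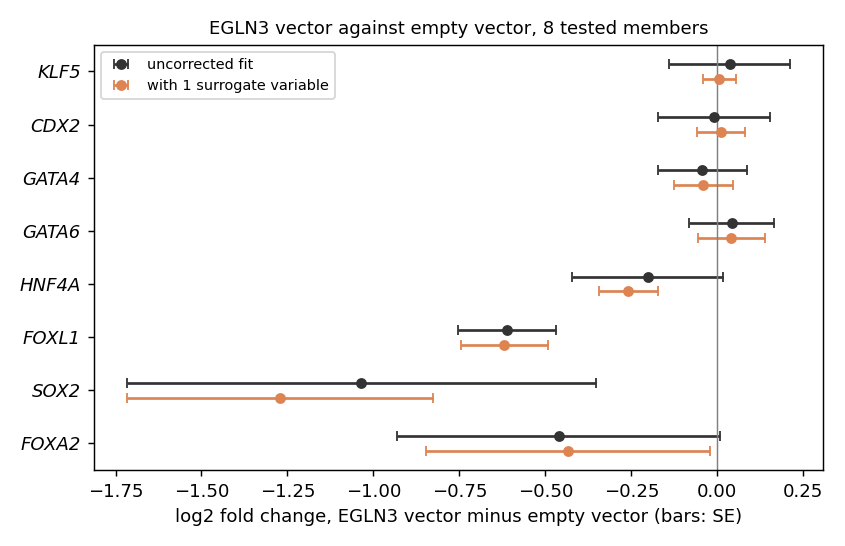
Log2 fold change with its SE for the 8 tested factors, EGLN3 vector minus empty vector, in the uncorrected fit (black) and with 1 surrogate variable (orange). FOXL1 lies at -0.61 and -0.62, KLF5, CDX2, GATA4 and GATA6 near 0, and SOX2 and FOXA2 have wide bars.

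Most markers of the mesenchyme in which FOXL1 is best known were near or at 0. In a list of 20 gut mesenchyme and fibroblast markers, 17 stayed under 0.5 FPKM in every library and 5 had no count at all. COL1A2, LUM and FOXF2, which mark fibroblasts and gut mesenchyme, were at 0 counts, and PDGFRA had 1 count in 1 library. FOXF1, a fork head neighbour of FOXL1 on chromosome 16, had 1 to 11 counts, and FOXC2, also nearby, 0 to 4. The 3 exceptions were BMP4, a secreted growth factor, at 279 ± 14.2 FPKM in controls and 252 with EGLN3 (log2 fold change -0.15, SE 0.14), TWIST1 at 2.64 FPKM, and COL1A1, which passed 0.5 FPKM in control replicate 3 alone (0.519). Of the 5 tested markers 0 were called in the uncorrected fit (2 of the 20 reached 1 FPKM in controls), and the median log2 fold change was -0.148. COL1A1, at 0.494 FPKM in controls, was the 1 of 5 tested markers without overlap in CPM (edgeR, unadjusted p = 0.138). Of all tested genes 6.26% had no overlap, and 3.62% were lower with EGLN3 without overlap. The neighbour MTHFSD was at 3.46 ± 0.547 FPKM in controls and 3.57 with EGLN3. The list's summed level ran from 234 to 292 FPKM over the libraries, of which BMP4 gave 231 to 287.

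SOX2 and FOXA2 were barely detected. SOX2 (ENSG00000181449; chromosome 3, 181711924 to 181714436, plus strand, 1 exon) had 23, 19 and 10 counts in control replicates 1 to 3 and 1, 13 and 11 with EGLN3. The groups overlapped, and EGLN3 replicate 1 stood apart with its single count, whose 95% exact Poisson interval is 0.0253 to 5.57 and covers counting error only. The log2 fold change was -1.04 with SE 0.68 (unadjusted p = 0.175, edgeR), and -1.27 (SE 0.45; edgeR, adjusted p = 0.103) with the surrogate variable. SOX2 lies within the long noncoding gene SOX2-OT on the same strand, which had 2 to 6 counts and shares no exon base with it. FOXA2 (ENSG00000125798; chromosome 20, 22581005 to 22585455, minus strand) had 11, 12 and 19 counts in controls and 13, 12 and 5 with EGLN3, with overlapping groups (log2 fold change -0.46, SE 0.47; edgeR, unadjusted p = 0.361). With the surrogate variable SOX2 had an unadjusted p = 0.00877 (edgeR) and FOXA2 an unadjusted p = 0.304 (edgeR).

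Some paralogues of these scarce factors were more abundant, and others were at 0. FOXA1, a pioneer factor of the same family, was at 7.37 ± 0.727 FPKM in controls, 22.4 times FOXA2, and FOXA3 was 7.26 times FOXA2. SOX9, a factor of gut progenitor cells, was at 37.8 ± 5.79 FPKM, 90.7 times SOX2. SOX1 and SOX3, the closest relatives of SOX2, had 0 counts in every library, and SOX21 was at 0.837 FPKM in controls. Of 17 paralogues, 11 could be tested and 0 were called in either direction, with a median log2 fold change of 0.0769. GATA2 had the smallest p among them (log2 fold change -0.21, SE 0.13; edgeR, unadjusted p = 0.162). Its groups did not overlap in CPM, as for 6.26% of all tested genes, but did in FPKM. HNF4G had the next smallest p, at a log2 fold change of 0.22.

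Other lineage factors of both organs were detected, and none was called. Of 16 further foregut and gastric factors 9 reached 1 FPKM in controls, led by the fork head factor FOXQ1 at 50.8 FPKM, with NR2F2, RUNX3 and HOXA5 below it. PDX1, the homeobox factor of antrum and duodenum next to CDX2 on chromosome 13, was at 1.22 ± 0.0799 FPKM in controls (57, 48 and 46 counts) and 0.933 with EGLN3 (50, 36 and 26 counts), so its groups overlapped. Of 19 further intestinal factors 8 reached 1 FPKM, led by the Notch target HES1, with HOXB9 and TCF7L2 also present. HES1, TCF7L2 and KLF4, also in that list, are expressed in many tissues. ISX and ATOH1, of enterocytes and secretory cells, had 0 counts in every library, and CREB3L3 had 1 count in all. Among 13 epithelial factors 11 reached 1 FPKM, including the ETS factors ELF3 at 35.1 FPKM and EHF, which ran from 6.35 to 42.7 FPKM over the libraries. These lists had 10, 10 and 12 tested genes, 0 calls each, and median log2 fold changes of -0.0602, 0.0563 and 0.0487.

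Products that define mature gastric and intestinal cells were mostly low where CDX2, GATA4, GATA6 and HNF4A were present. Of 38 intestinal products, 6 reached 1 FPKM in controls and 29 stayed under 0.5 FPKM in every library. CDH17, an intestinal cadherin and textbook target of CDX2, had 3 to 8 counts per library, the goblet mucin MUC2 1 to 4 and the lectin LGALS4 3 to 9. FABP1 and TFF3 had no count, and the brush border protein VIL1 was at 0.621 ± 0.0708 FPKM. The cell surface protein CEACAM6 at 231 ± 10.1 FPKM and the keratin KRT20 at 92.9 ± 5.63 FPKM were the abundant exceptions, with CEACAM5 and USH1C behind them.

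On the gastric side, 5 of 26 measured products reached 1 FPKM, and 17 stayed under 0.5 FPKM in every library. PSCA, the hormone gene GAST, the water channel AQP5 and CAPN8 led, GAST at 48.3 ± 13.5 and AQP5 at 42.2 ± 6.07 FPKM in controls. The pit cell products TFF1 and GKN1 had 0 to 8 and 5 to 10 counts per library, and the tight junction gene CLDN18 0 to 3. MUC5AC, the surface mucin, was at 0.325 ± 0.0997 FPKM. TFF1, GKN1, CLDN18 and MUC5AC were thus under 1 FPKM in control means. PSCA, GAST, AQP5, CAPN8 and VSIG2 (13.2 FPKM), of the same list, were above it. TFF1, GKN1 and CLDN18 were named after their values were seen. With EGLN3, 0 of 10 tested gastric and 0 of 11 tested intestinal products were called, with medians of -0.138 and -0.104. With the surrogate variable GAST was called higher (log2 fold change 0.42; edgeR, adjusted p = 0.00341) and AQP5 lower (-0.27; edgeR, adjusted p = 0.0164). Once GC and length trends were removed, GAST was still called (0.497; edgeR, adjusted p = 0.000531) and AQP5 was not (edgeR, adjusted p = 0.232). The surrogate variable fit called 4.76% of all tested genes in either direction, and 0.992% with trends removed. GAST stood at 103 FPKM in EGLN3 replicate 1, while replicates 2 and 3, at 52.3 and 39.7, lay inside the control range of 34.0 to 60.7. Without EGLN3 replicate 1 GAST no longer passed with the surrogate variable (edgeR, adjusted p = 0.106). AQP5 passed without control replicate 3 or EGLN3 replicate 2 and was lost without each of the other 4 libraries (edgeR, adjusted p = 0.071 to 0.222).

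Of 7 squamous markers 6 reached 1 FPKM in controls. KRT6A reached 1227 ± 56.8 FPKM in controls, KRT13 39.3 ± 6.15 and DSG3 18.8, while the squamous regulator TP63 had 0 to 2 counts per library. KRT13 ran at 33.4, 45.7 and 38.7 FPKM in controls and 31.4, 28.9 and 25.9 with EGLN3, without overlap (log2 fold change -0.45, SE 0.16; edgeR, unadjusted p = 0.0252, adjusted p = 1). It was called lower with the surrogate variable (edgeR, adjusted p = 0.00275) and with GC and length trends removed (edgeR, adjusted p = 0.018), as was KRT6A with the surrogate variable alone (-0.18; edgeR, adjusted p = 0.0333). The surrogate variable fit called 3.66% of all tested genes lower, and 3.62% were lower without overlap in CPM. The KRT13 call with the surrogate variable was lost without EGLN3 replicate 1 (edgeR, adjusted p = 0.0942) and kept without each of the other 5 libraries. That of KRT6A was kept without control replicate 3 and lost without each of the other 5 (edgeR, adjusted p = 0.118 to 0.357). Endothelial and blood cell markers were low, with 8 of 11 under 0.5 FPKM in every library and LYZ highest at 2.12 FPKM.

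**Figure D4:**
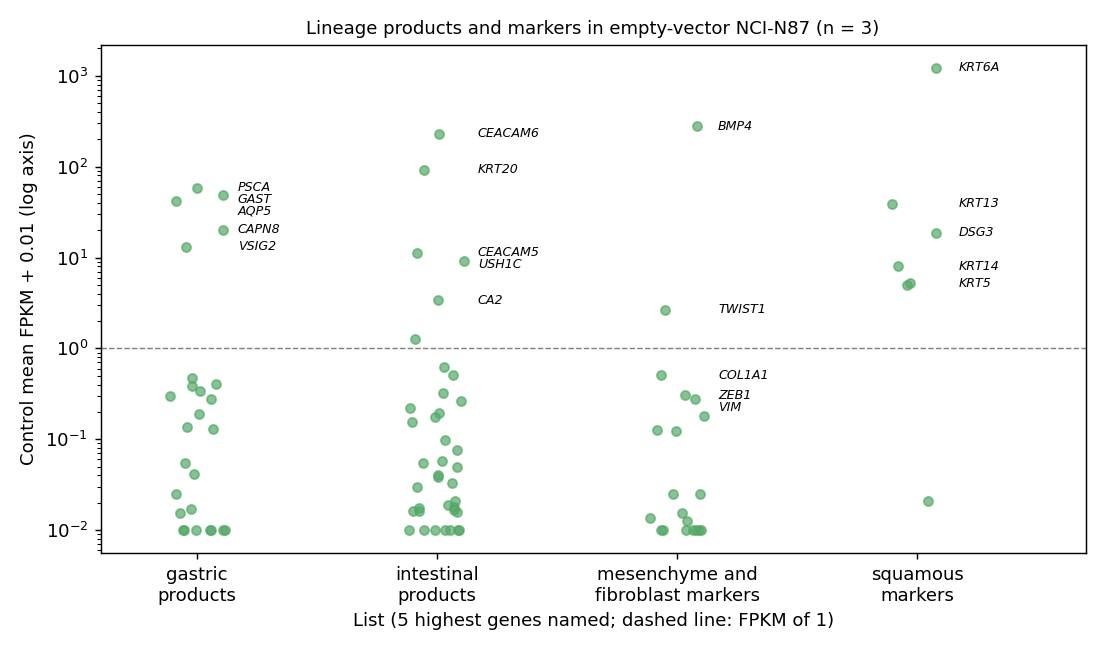
Control mean FPKM plus 0.01 (log axis, n = 3) of every gene in 4 lists, with the 5 highest of each named and a dashed line at an FPKM of 1. Most gastric, intestinal and mesenchymal genes lie below the line, and CEACAM6, KRT20, BMP4 and KRT6A lie far above it.

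Likeness across the 6 libraries was measured as the root mean square difference in log2 CPM after each gene's mean was removed, over 12786 protein-coding genes that share these libraries. FOXL1 was most like CPLANE2, a ciliary planar polarity gene, at 0.085, and GPR37L1 at 0.0956, where the median gene differed by 0.395. CPLANE2 ran at 1.85, 1.68 and 1.89 FPKM in controls and 1.15, 1.29 and 1.23 with EGLN3. KLF5 was most like LARP4B (0.0181) and SORT1 (0.0184), and CDX2 most like MITD1 (0.0295) and CCDC43 (0.0308). GATA6 was nearest to TASP1 and TPP1, GATA4 to CCDC25 and ST3GAL6, and HNF4A to REPS2 and NRP1. For SOX2 the nearest gene, CMTM1, differed by 0.256, where the median gene differed by 0.978. For FOXA2 it was CLDND2, at 0.0813 against a median of 0.511.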

How the data were processed

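The authors deposited whole-number gene counts and FPKM for 6 libraries. Per the submitters' processing notes, the build was hg38 and the tools were DESeq2 1.20.0, featureCounts 1.5.0-p3 and HISAT2 2.0.5, and no role is stated. No source used here states the annotation or the use of strand.

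Low counts were removed by filterByExpr, libraries scaled by TMM, and genes tested in R 4.3.3 with edgeR 4.0.16 (quasi-likelihood, robust), adjusted by Benjamini and Hochberg over all tested genes, with calls at an adjusted p under 0.05. SE is the log2 fold change divided by the square root of F. Levels between genes are FPKM. Surrogate variables came from svaseq (sva 3.50.0), and GC content from the longest GENCODE release 29 transcript. Only the uncorrected edgeR fit was tested on simulated data. That simulation had no axis shared by genes, such as the first component, so it does not cover the surrogate variable fits. Its dispersion, the scatter between libraries, was also set below the 0.0589 estimated in the uncorrected fit, so it was less noisy than the data. Alternatives used DESeq2 1.42.0, limma 3.58.1, other scalings and filters, the replicate number as a block, log2(FPKM + 1) or log2(FPKM + 0.1), and leaving out each library.

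Factors and lists were chosen with earlier results of these data known. Named genes were the factors, EGLN3, up to 4 genes per list with the highest control FPKM and 2 with the smallest p, the 2 most alike protein-coding genes per factor, and genes overlapping a factor. Defining markers, paralogues and neighbours outside this rule were named after their values were seen. Results of some listed genes are not reported here.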

Additional observations from a re-analysis of the deposited data

How the results depend on the processing

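The count of called factors was 0 in the uncorrected fit and in every alternative run on all 6 libraries except the surrogate variable fits, which called 1, FOXL1, alone (1) and with GC and length trends (1). Leaving out 1 library gave 0 in every uncorrected fit, and 0 to 1 in the refits with the surrogate variable. FOXL1 had a negative log2 fold change in 25 of 25 settings, from -0.686 to -0.557 over the fits without 1 library, and an unadjusted p under 0.05 in all 25. Of 87 tested listed genes outside the factors, 0 were called in the uncorrected fit. With the surrogate variable 4 of 87 were called, where 4.76% of all tested genes were. With GC and length trends removed too it was 2 of 87, against 0.992%. Without 1 library 0 to 6 were called, and only the refits with the surrogate variable called any. Over all genes 1 was called, against 0 with limma-voom, 0 with log2(FPKM + 1) with or without a filter, 749 with the surrogate variable, 156 with trends removed, and 0 to 1038 without 1 library (1038 with the surrogate variable and without control replicate 3).

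Near-zero log2 fold changes turned sign, and the cause was not tested. CDX2 turned to 0.0104 with the surrogate variable and 0.084 with trends removed, and GATA4 to 0.0879 with trends removed. Over the fits without 1 library CDX2 ran from -0.0943 to 0.101, GATA4 from -0.0887 to 0.0314, GATA6 from -0.0226 to 0.0814, KLF5 from -0.0684 to 0.168 and HNF4A from -0.351 to 0.0106. SOX2 and FOXA2 were not tested under the stricter filter (1 CPM in 3 libraries) or the FPKM minimum of 0.5. The refits with the surrogate variable and without 1 library were added after seeing the data.

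Same-numbered libraries were not alike: they correlated at -0.793, -0.176 and -0.674 in their deviations from the group means, and 0 of 6 correlated best with their own number. The labels do not state whether replicates were paired. These correlations cannot decide it, because the first component also enters them. The replicate block called 0 factors and 0 genes, with FOXL1 at -0.616 (edgeR, unadjusted p = 0.0344).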
